A study of Mus musculus with 9 samples.

Results

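The genes of the proteasome were followed in whole lungs of C57BL/6 mice 24 hours after material was placed in the trachea. They were taken as every messenger RNA entry whose symbol began with Psma, Psmb, Psmc, Psmd or Psme and a digit, without the immunoproteasome genes Psmb8, Psmb9 and Psmb10. This gave 42 genes of the 18984 listed. The 3 groups were mice given hyphal fragments of Aspergillus fumigatus (hyphae), mice given conidia of the same fungus (conidia) and mice given normal saline (saline), with 3 libraries each. Hyphae are the filamentous, growing form of this mould and conidia are its resting spores. All mice were of this strain and are called immunocompetent in the series title. Their ages are not given in the sources used here. Nothing in the labels ties a library to its own animal, so every p given here reflects the scatter of these libraries alone, and that scatter may be technical.

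The proteasome is the barrel-shaped protease that degrades proteins tagged with ubiquitin. Its 20S core particle is built from rings of alpha subunits (Psma genes), which gate the entry, and rings of beta subunits (Psmb genes), some of which cut the substrate. The 19S regulatory particle sits on the core and consists of a base, with a ring of ATPases (Psmc genes) that unfold substrates, and a lid, which removes ubiquitin (most Psmd genes). Psmd5, Psmd9 and Psmd10 carry Psmd symbols but are chaperones that help to assemble the base. The Psme genes code for activators that can replace the regulatory particle. In inflamed tissue, interferon-gamma is known to induce the immunoproteasome subunits and the activators Psme1 and Psme2.

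By class the 42 genes were 8 alpha subunits, 8 beta subunits, 6 ATPases, 14 other regulatory particle genes, 5 activators and Psmc3ip. Psmc3ip matches the symbol rule but is a partner of recombinases in meiosis and no subunit of the proteasome. Expression was given as FPKM, a fragment count corrected for the length of the transcript and the size of the library, so levels can be compared between genes. Genes that reached 1 FPKM in 3 or more of the 9 libraries were tested, which held for 40 of the 42 and for 13761 genes in all. The 2 genes that did not were Psma8 (Entrez 73677), the alpha subunit of spermatogenic cells, and Psmb11 (Entrez 73902), the beta subunit of the thymus. Psma8 had 0.19, 0.10 and 0.16 FPKM in hyphae, 0.13, 0.10 and 0.00 FPKM in conidia and 0.11, 0.13 and 0.07 FPKM in saline libraries. Psmb11 had 0.84, 0.83 and 1.34 FPKM in hyphae, 0.48, 0.60 and 0.50 FPKM in conidia and 0.92, 0.62 and 0.79 FPKM in saline libraries. Both were thus near the bottom of the scale in all 9 libraries.

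FPKM values are shares of a library. In the deposited values the median of all genes tested was lower after hyphae than after saline by a log2 difference of −0.37, lower than after conidia by −0.29, and the shift between conidia and saline was −0.07. Each comparison is therefore also given after libraries were rescaled by the median of ratios, which places the median gene near 0. The 6 alveolar type 2 markers were high in sum in every library. They summed to 25500 to 29700 FPKM in hyphae, 14500 to 25300 FPKM in conidia and 20000 to 28900 FPKM in saline libraries. In hyphae against saline 2 of them fell and none rose, and after rescaling 3 rose and 1 fell. The 8 neutrophil markers, all detected, summed to 644 to 5630 FPKM in hyphae, 813 to 3050 FPKM in conidia and 67.5 to 131 FPKM in saline libraries. The 5 club cell markers summed to 32200 to 41200 FPKM in hyphae, 46900 to 64100 FPKM in conidia and 68700 to 125000 FPKM in saline libraries. All 5 fell in hyphae against saline (2 after rescaling). The 5 B cell markers summed to 19.4 to 53.9 FPKM in hyphae, 23.4 to 112 FPKM in conidia and 80.1 to 148 FPKM in saline libraries. Of these, 4 fell in hyphae against saline (1 after rescaling). The 6 ciliated cell markers summed to 44.8 to 122 FPKM in hyphae, 122 to 199 FPKM in conidia and 173 to 296 FPKM in saline libraries, and all 6 fell in hyphae against saline on both scales. The 7 T and NK cell markers summed to 6.88 to 12.3 FPKM in hyphae, 8.74 to 28.1 FPKM in conidia and 17.8 to 26 FPKM in saline libraries, and 6 of the 7 fell in hyphae against saline (4 after rescaling). Of all genes tested, 14.9% rose and 50% fell in hyphae against saline as deposited, and 30% rose and 29.3% fell after rescaling. The rescaled counts of falling club and B cell markers stood near that share. No gene of these 6 lists was at 0 in a whole group. Further lists of cell markers were made and are not given in full. Among them, the 6 cardiac muscle markers summed to 95.8 to 2010 FPKM in hyphae libraries. The 6 erythroid markers summed to 2270 to 17900 FPKM in saline libraries. The part of these differences in cell make-up in the values below was not tested. In bulk tissue fewer cells of a type and less RNA per cell cannot be told apart.

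Proteasome subunits were well expressed in every library. The median of the 14 core subunits tested lay at 68.4 to 83.3 FPKM in hyphae, 80.7 to 90.3 FPKM in conidia and 69.4 to 79.9 FPKM in saline libraries. The median of the 20 regulatory particle genes lay at 43.4 to 46.2 FPKM in hyphae, 45.4 to 51.3 FPKM in conidia and 39.5 to 43.5 FPKM in saline libraries. Core subunits are present in equal numbers in the particle, but their transcripts were not equally abundant. In saline libraries group means in the core ran from 34.4 FPKM for Psma5 to 104 FPKM for Psmb4. Among the 20 regulatory particle genes, which include the assembly chaperones, they ran from 10.6 FPKM for Psmd10 to 76.2 FPKM for Psmd8. In hyphae libraries Psmd8 averaged 122 FPKM and Psmd10 averaged 5.04 FPKM, so the range among these 20 genes was wider. Without the chaperones the lowest was Psmd14, with 22.8 FPKM in saline and 25.1 FPKM in hyphae libraries.

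**Figure D1:**
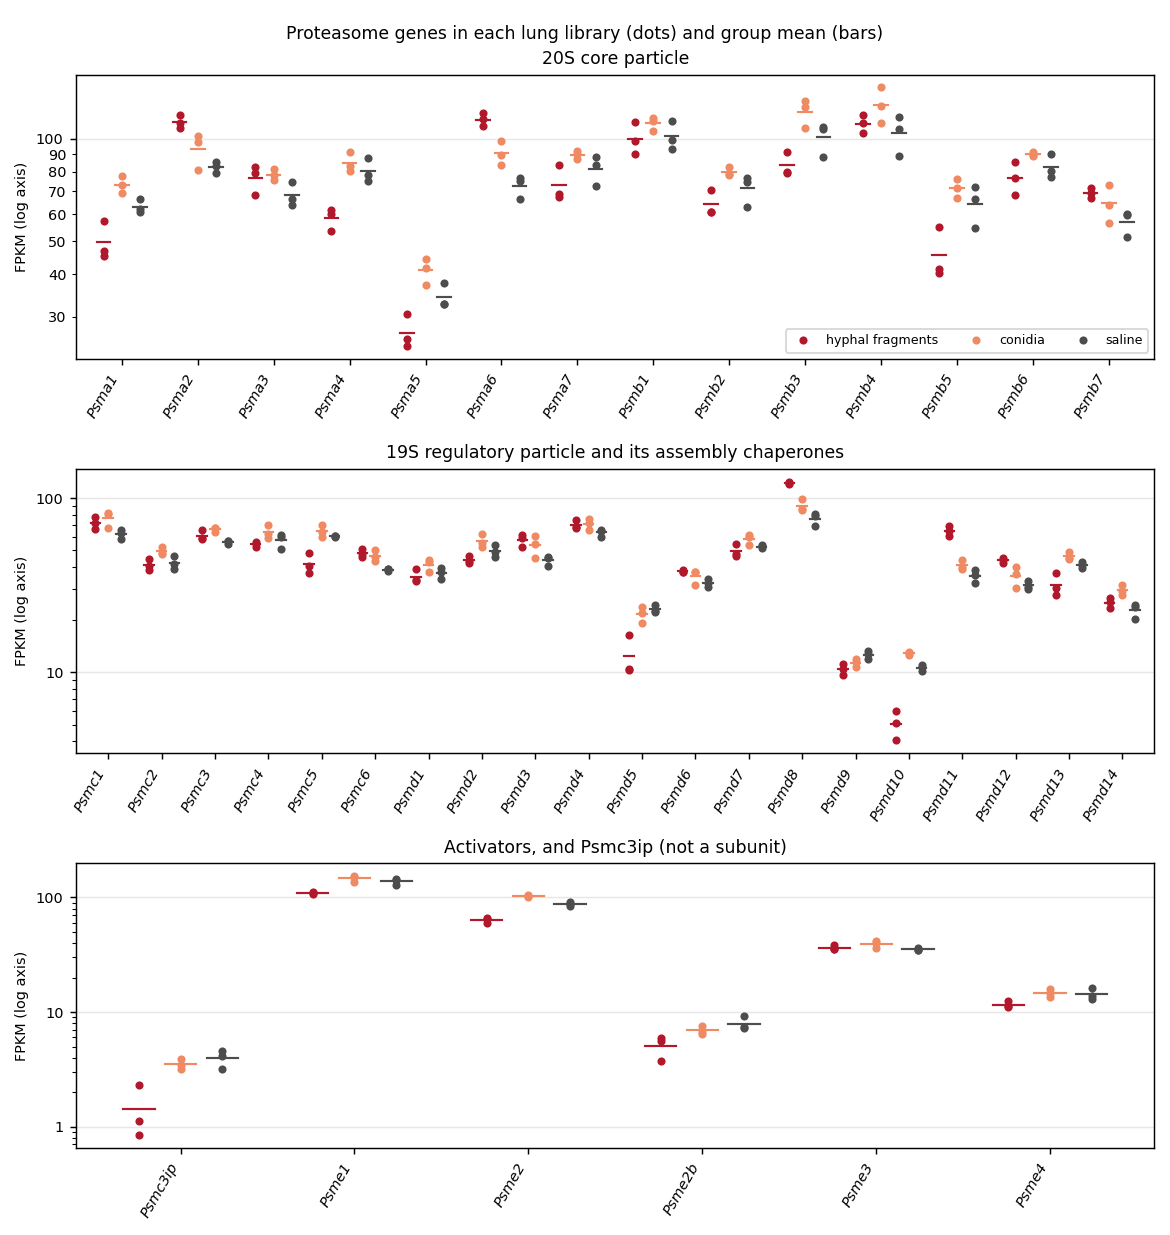
FPKM (log axis) of the 40 proteasome genes tested, in 3 panels for the core, the regulatory particle with its assembly chaperones, and the activators with Psmc3ip. Dots are libraries and bars are group means, with hyphae at the left, conidia in the middle and saline at the right of each gene. Psmd11, Psmd8 and Psma6 stood above saline in all hyphae libraries, and Psmd10, Psmd5 and Psmc3ip stood below it.

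Hyphae were compared with saline to see how the set of proteasome genes stood in lungs given the filamentous form. In the deposited values the calls went both ways. Of the 40 genes tested 7 rose (17.5%, against 14.9% of all genes) and 14 fell (35%, against 50% of all genes). The other 19 did not pass the test (limma, adjusted p under 0.05). The log2 differences of the 40 genes had an SD of 0.43, against 0.81 over all genes tested, so the set was less spread than genes at large. The genes that rose were the lid subunits Psmd11, Psmd8, Psmd12 and Psmd3, the alpha subunits Psma6 and Psma2 and the ATPase Psmc6. Their rises ran from a log2 difference of 0.31 for Psmc6 to 0.84 for Psmd11. The median log2 difference was −0.08 for the 40 genes and −0.37 for all genes tested, and 31 of the 40 lay above that median gene. After rescaling, 22 of the 40 rose (55%, against 30% of all genes) and 3 fell (7.5%, against 29.3% of all genes), with a median of 0.34. The same 7 rose on both scales, 15 that had not passed the test rose only after rescaling, and 11 of the 14 that fell no longer passed it. Psmc3ip, Psmd10 and Psmd5 fell on both scales, and no gene was called in opposite directions.

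**Figure D2:**
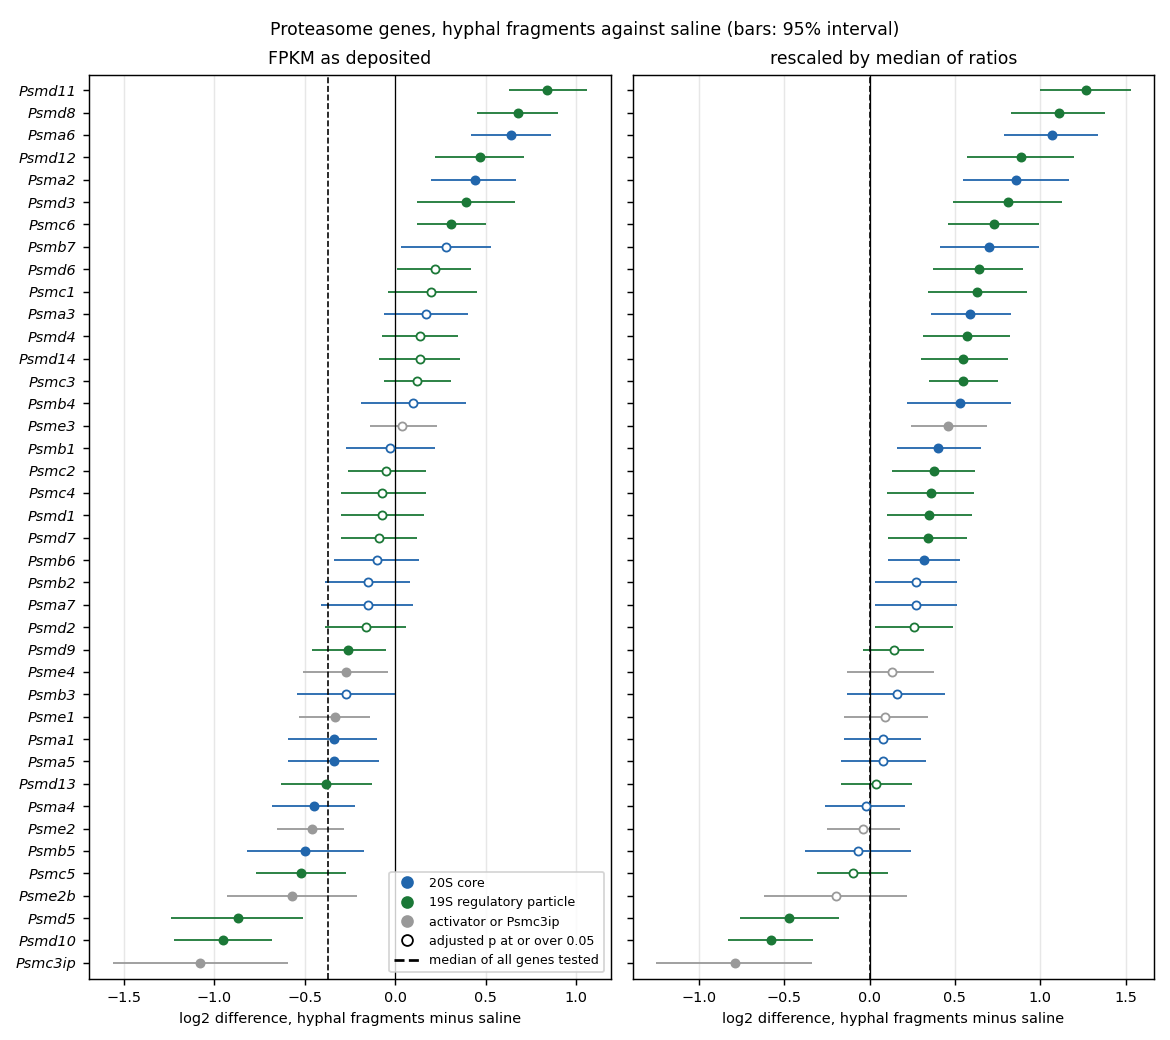
Log2 difference of hyphae minus saline for the 40 genes tested (rows, in the same order in both panels), from FPKM as deposited at the left and after rescaling at the right. Points are limma estimates with 95% intervals, filled where the adjusted p was under 0.05, and the dashed line is the median of all genes tested. Psmd11 is at the top with 0.84 and 1.27, Psmc3ip at the bottom with −1.08 and −0.79, and the middle of the set shifts from −0.08 to 0.34.

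The lid of the regulatory particle held the largest rises. Psmd11 (Entrez 69077), which joins the lid to the core, had 64.5, 68.7 and 60.7 FPKM in hyphae, 44.3, 39.2 and 40.1 FPKM in conidia and 38.4, 32.5 and 36.0 FPKM in saline libraries. The hyphae libraries lay above all 6 others. The mean was 64.6 ± 4.04 FPKM in hyphae and 35.6 ± 2.98 FPKM in saline libraries (SD, n = 3 each), a log2 difference of 0.84 (SE 0.10, adjusted p = 0.000136) and of 1.27 after rescaling. Psmd8 (Entrez 57296), another lid subunit, had 124, 123 and 120 FPKM in hyphae, 99.3, 84.9 and 86.3 FPKM in conidia and 78.7, 68.8 and 81.0 FPKM in saline libraries. The groups of hyphae and saline libraries did not overlap, and the log2 difference was 0.68 (SE 0.10, adjusted p = 0.000442). Psmd12 (Entrez 66997) had 42.4, 44.2 and 45.1 FPKM in hyphae, 40.2, 30.3 and 36.7 FPKM in conidia and 33.4, 31.0 and 30.0 FPKM in saline libraries, a log2 difference of 0.47 between hyphae and saline (SE 0.11, adjusted p = 0.00469). Psmd3 (Entrez 22123) averaged 57.8 ± 4.63 FPKM in hyphae and 43.9 ± 2.73 FPKM in saline libraries (SD, n = 3 each), a log2 difference of 0.39 (adjusted p = 0.0181). Its call was lost without saline replicate 2, hyphae replicate 1 or hyphae replicate 2, where the adjusted p reached 0.067.

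Of the other 4 lid subunits, Psmd6, Psmd14 and Psmd7 did not pass the test in the deposited values and Psmd13 fell. Psmd14, the enzyme that removes ubiquitin chains from the substrate, averaged 25.1 ± 1.64 FPKM in hyphae and 22.8 ± 2.18 FPKM in saline libraries (SD, n = 3 each), a log2 difference of 0.14 (adjusted p = 0.249). Psmd13 had 37.0, 27.8 and 30.3 FPKM in hyphae and 43.2, 39.6 and 41.2 FPKM in saline libraries, a log2 difference of −0.38 (adjusted p = 0.0134) in the deposited values and of 0.04 after rescaling. Of the 8 lid genes, 4 thus rose and 1 fell in the deposited values with a median log2 difference of 0.30, and 7 rose after rescaling with a median of 0.73. All genes had 14.9% higher, 50% lower and a median of −0.37 as deposited, and 30% higher with a median of 0 after rescaling. The 3 base subunits without ATPase activity, Psmd1, Psmd2 and the ubiquitin receptor Psmd4, had log2 differences between −0.16 and 0.14, of which none passed the test, and after rescaling Psmd1 and Psmd4 rose. This grouping by role was made after the values were seen.

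The 3 chaperones of the base all fell in the deposited values, where 50% of all genes fell. After rescaling 2 of them, Psmd10 and Psmd5, fell (29.3% of all genes). Psmd10 (Entrez 53380), also called gankyrin, had 5.96, 4.06 and 5.10 FPKM in hyphae, 13.1, 12.6 and 12.9 FPKM in conidia and 11.04, 10.14 and 10.65 FPKM in saline libraries. The hyphae values lay below all 6 others. The mean was 5.04 ± 0.951 FPKM in hyphae and 10.6 ± 0.451 FPKM in saline libraries (SD, n = 3 each), a log2 difference of −0.95 (SE 0.12, adjusted p = 0.000207) and of −0.58 after rescaling. Psmd5 (Entrez 66998) had 16.3, 10.3 and 10.5 FPKM in hyphae, 19.3, 23.7 and 22.0 FPKM in conidia and 24.4, 22.2 and 22.6 FPKM in saline libraries. Its log2 difference between hyphae and saline was −0.87 (SE 0.16, adjusted p = 0.00153), and −0.47 after rescaling. Psmd9 (Entrez 67151) averaged 10.4 ± 0.80 FPKM in hyphae and 12.6 ± 0.657 FPKM in saline libraries (SD, n = 3 each). Its log2 difference of −0.26 (adjusted p = 0.034) was smaller and lay above the −0.37 of the median gene. After rescaling it was 0.14 and did not pass the test.

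Among the 6 ATPases 1 rose and 1 fell in the deposited values (14.9% and 50% of all genes). Psmc6 (Entrez 67089) had 46.1, 47.8 and 51.0 FPKM in hyphae, 50.4, 43.3 and 46.1 FPKM in conidia and 38.3, 39.0 and 39.2 FPKM in saline libraries. Every hyphae library was above every saline library, and the log2 difference was 0.31 (SE 0.08, adjusted p = 0.0109). Psmc5 (Entrez 19184) had 48.4, 36.9 and 40.7 FPKM in hyphae, 59.9, 63.7 and 70.2 FPKM in conidia and 60.6, 60.7 and 59.6 FPKM in saline libraries, a log2 difference of −0.52 between hyphae and saline (SE 0.11, adjusted p = 0.00311). After rescaling its difference was −0.10 and did not pass the test, while the other 5 ATPases all rose (30% of all genes). Psmc3ip (Entrez 19183), the gene that only shares the symbol, had 2.30, 1.11 and 0.85 FPKM in hyphae, 3.44, 3.91 and 3.19 FPKM in conidia and 4.55, 4.17 and 3.20 FPKM in saline libraries. It had the lowest difference of the 40 genes, −1.08 (SE 0.21, adjusted p = 0.0021), and at these low levels the added 1 FPKM understates the fold.

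In the core, 2 of the 14 subunits tested rose and 4 fell in the deposited values, and 7 rose and none fell after rescaling. The rises of 14.3% of the core in the deposited values were near the 14.9% of all genes, and the falls of 28.6% stood beside 50%. After rescaling the rises of 50% stood beside 30% of all genes. Psma6 (Entrez 26443), of the alpha ring, had 114, 118 and 109 FPKM in hyphae, 98.4, 83.8 and 89.5 FPKM in conidia and 76.5, 66.4 and 75.2 FPKM in saline libraries. The 3 groups did not overlap. Its log2 difference between hyphae and saline was 0.64 (SE 0.10, adjusted p = 0.000543). Psma2 (Entrez 19166) averaged 112 ± 4.97 FPKM in hyphae and 82.5 ± 2.94 FPKM in saline libraries (SD, n = 3 each), a log2 difference of 0.44 (adjusted p = 0.00519). Psma4 (Entrez 26441) had 60.1, 53.6 and 61.9 FPKM in hyphae, 83.2, 80.5 and 91.2 FPKM in conidia and 87.9, 78.1 and 74.9 FPKM in saline libraries, a log2 difference of −0.45 between hyphae and saline (SE 0.10, adjusted p = 0.00396). Within the alpha ring, subunits that occur side by side in the same particle thus differed in direction in the deposited values.

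The beta ring moved less. Psmb7 (Entrez 19177), the subunit with trypsin-like activity, had 71.7, 69.0 and 66.8 FPKM in hyphae, 73.0, 63.8 and 56.7 FPKM in conidia and 60.1, 51.3 and 59.6 FPKM in saline libraries. Its hyphae and saline values did not overlap, but the log2 difference of 0.28 (SE 0.11) narrowly missed the test (adjusted p = 0.0527). Psmb5 (Entrez 19173), the subunit with chymotrypsin-like activity, had 54.9, 41.4 and 40.3 FPKM in hyphae, 71.6, 66.8 and 76.2 FPKM in conidia and 72.2, 54.5 and 66.4 FPKM in saline libraries. The lowest saline library lay below the highest hyphae library, and the log2 difference of −0.50 (SE 0.15, adjusted p = 0.0146) lost its call without saline replicate 1, hyphae replicate 2 or hyphae replicate 3 (adjusted p up to 0.0551). Psmb6 (Entrez 19175), the caspase-like subunit, averaged 76.8 ± 8.51 FPKM in hyphae and 82.4 ± 6.65 FPKM in saline libraries (SD, n = 3 each), a log2 difference of −0.10 (adjusted p = 0.405).

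Of the 5 activators, 4 fell in the deposited values and none rose, where 50% of all genes fell and 14.9% rose. Their median log2 difference of −0.33 was close to the −0.37 of all genes. Psme1 (Entrez 19186), a subunit of the cytoplasmic activator, had 112, 108 and 108 FPKM in hyphae, 153, 137 and 149 FPKM in conidia and 141, 129 and 144 FPKM in saline libraries. Its log2 difference between hyphae and saline was −0.33 (SE 0.09, adjusted p = 0.00827). Psme2 (Entrez 19188), its partner in the ring, had 64.8, 59.7 and 65.9 FPKM in hyphae, 106, 101 and 102 FPKM in conidia and 88.3, 84.5 and 90.5 FPKM in saline libraries. It was lower in every hyphae library than in any other library, with a log2 difference of −0.46 against saline (SE 0.08, adjusted p = 0.00109). Psme2b (Entrez 621823), a retrocopy of Psme2, had 3.73, 5.88 and 5.57 FPKM in hyphae, 6.70, 6.49 and 7.61 FPKM in conidia and 7.21, 9.23 and 7.36 FPKM in saline libraries. Its value is uncertain, since reads can be split between it and Psme2.

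Psme3 (Entrez 19192), the nuclear activator, had 38.1, 35.2 and 35.4 FPKM in hyphae, 41.5, 36.1 and 39.7 FPKM in conidia and 35.9, 34.5 and 35.0 FPKM in saline libraries. It did not pass the test in the deposited values, with a log2 difference of 0.04, and rose by 0.46 after rescaling (adjusted p = 0.00374). Psme4 (Entrez 103554), a large activator of a single chain, had 12.4, 11.02 and 11.4 FPKM in hyphae, 16.0, 13.6 and 14.5 FPKM in conidia and 16.1, 13.0 and 13.8 FPKM in saline libraries. Its log2 difference of −0.27 (adjusted p = 0.0452) was lost without saline replicate 1 or 3, conidia replicate 3 or hyphae replicate 2 or 3 (adjusted p up to 0.161). After rescaling no activator fell.

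Leaving out 1 library at a time, 6 of the 7 rises and 8 of the 14 falls in the deposited values held in all 9 fits, and 18 of 22 rises and all 3 falls held in the rescaled values. The calls lost in the deposited values, besides those of Psmd3, Psmb5 and Psme4 above, were Psma1 (adjusted p up to 0.0661) and Psma5 (up to 0.0821), each without saline replicate 1 or hyphae replicate 2 or 3, Psmd13 without hyphae replicate 2 (0.0532), and Psmd9 without saline replicate 1 or 2 or hyphae replicate 2 or 3 (up to 0.12). Across the 40 genes the log2 difference between hyphae and saline was higher for longer transcripts (Spearman rho 0.32, n = 40) and for higher expression (rho 0.29). These are descriptions across genes of the same libraries, and for all genes tested the coefficients were 0.06 and 0.29.

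Hyphae were also set against conidia, to compare the forms of the fungus. Here 4 of the 40 genes rose (10%, against 12.7% of all genes) and 16 fell (40%, against 42.5% of all genes), shares near the background. The median log2 difference was −0.23 for the 40 genes and −0.29 for all genes tested. The rises were those of Psmd11 by 0.64 (adjusted p = 0.00069), Psmd8 by 0.44 (adjusted p = 0.00552), Psma6 by 0.33 (adjusted p = 0.0192) and Psmd12 by 0.30 (adjusted p = 0.043). The call of Psma6 was lost without conidia replicate 2 or 3 or hyphae replicate 2 (adjusted p up to 0.0674), and that of Psmd12 in 8 of the 9 fits without 1 library, all but the one without conidia replicate 1 (up to 0.137). Of the 16 falls, those of Psme4, Psmc2, Psmd2 and Psmb2 were also lost in at least 1 such fit. The largest falls were those of Psmd10, with a log2 difference of −1.21 (adjusted p = 0.000106), Psmc3ip with −0.94, Psmd5 with −0.78 and Psme2 with −0.69. After rescaling 11 rose (27.5%, against 25.4% of all genes) and 5 fell (12.5%, against 25.4% of all genes), and Psmd10, Psmc3ip, Psmd5, Psmc5 and Psme2 were the 5 that fell. This comparison and that with saline share the hyphae libraries.

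The comparison of conidia and saline asked whether resting spores changed proteasome genes, and it shares the saline libraries with that of hyphae. None of the 40 genes passed the test (0%, against 0.69% of all genes in either direction). At an unadjusted p under 0.05, 9 of the 40 were higher (8.78% of all genes) and none was lower (12.4% of all genes). The differences were small and mostly positive: 36 of the 40 were above 0, the median log2 difference was 0.17 against −0.07 for all genes tested, and the range was −0.17 to 0.36. In 16 of the 40 genes all 3 conidia libraries lay above all 3 saline libraries (12% of all genes), and in none did they lie below (17.8% of all genes). Psmd14 (Entrez 59029) had the largest difference, with 31.6, 27.6 and 29.4 FPKM in conidia and 24.4, 20.3 and 23.6 FPKM in saline libraries. The groups did not overlap, and the log2 difference of 0.36 (SE 0.10) did not pass the test (adjusted p = 0.107).

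Rescaling left the count of calls at 0 for conidia against saline (0.342% of all genes) and moved the median to 0.26, with 23 of the 40 genes higher at an unadjusted p under 0.05 (12.3% of all genes). The count depended on 1 library. When conidia replicate 2 was left out of the rescaled values, 14 of the 40 genes passed the test, beside 1427 of all 13761 genes, against 47 with all libraries. Without rescaling the same omission gave 0 among the 40 and 1535 calls among all genes, against 95 with all libraries. Conidia replicate 2 had the lowest summed neutrophil markers of its group, 813 FPKM against 3050 and 2160 FPKM in the other two. The part of this difference in the count was not tested.

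Core and regulatory particle were then compared within each library, a contrast that does not depend on the scaling of whole libraries except through the added 1 FPKM. The mean log2(FPKM + 1) of the 14 core subunits exceeded that of the 20 regulatory particle genes by 0.888, 0.844 and 0.860 in hyphae, 0.940, 0.936 and 0.930 in conidia and 0.988, 0.858 and 0.913 in saline libraries. The hyphae and saline values overlapped. Group means were 0.864 ± 0.022 in hyphae, 0.935 ± 0.005 in conidia and 0.920 ± 0.065 in saline libraries (SD, n = 3 each), so that the core excess was lower by 0.055 in hyphae than in saline, within the SD of the saline libraries, and higher by 0.016 in conidia. No test was made of this score, since by plan a score over members was given no p. Its members were also chosen with earlier results known.

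Without the chaperones Psmd5, Psmd9 and Psmd10, which leaves 17 regulatory particle genes, the core excess was 0.555, 0.463 and 0.499 in hyphae, 0.656, 0.693 and 0.663 in conidia and 0.753, 0.631 and 0.669 in saline libraries. On this choice, made after the values were seen, every hyphae library lay below the 6 others. Group means were 0.506 ± 0.046 in hyphae, 0.671 ± 0.020 in conidia and 0.684 ± 0.063 in saline libraries (SD, n = 3 each). The 3 chaperones averaged 3.508, 3.082 and 3.212 on the log2 scale in hyphae, 3.899, 4.008 and 4.004 in conidia and 4.011, 3.946 and 3.929 in saline libraries. The size of the core excess after hyphae thus turned on whether assembly chaperones were counted with the particle they assemble.

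**Figure D3:**
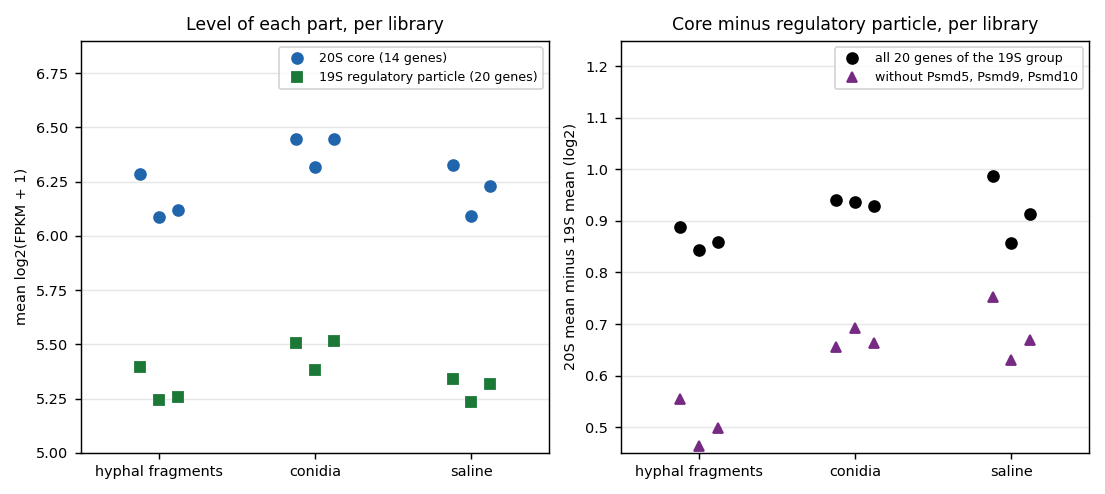
Left, mean log2(FPKM + 1) of the 14 core subunits (circles) and the 20 regulatory particle genes (squares) in each library, with hyphae, conidia and saline from left to right. Right, core mean minus regulatory particle mean per library with all 20 genes (circles, 0.844 to 0.888 in hyphae and 0.858 to 0.988 in saline libraries) and without the 3 assembly chaperones (triangles, 0.463 to 0.555 in hyphae and 0.631 to 0.753 in saline libraries).

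The immunoproteasome genes, which stand outside the set, are beta subunits that replace the cutting subunits of the core during an interferon response. All 3 fell in hyphae against saline in the deposited values (50% of all genes), and 1, Psmb9, fell after rescaling (29.3% of all genes). Psmb9 had 13.1, 17.2 and 15.6 FPKM in hyphae, 23.2, 38.7 and 29.9 FPKM in conidia and 34.2, 36.5 and 35.7 FPKM in saline libraries, a log2 difference of −1.17 between hyphae and saline (adjusted p = 0.000424). Set against the constitutive subunit that it replaces, the FPKM ratio of Psmb9 to Psmb6 was 0.203 ± 0.049 in hyphae, 0.340 ± 0.086 in conidia and 0.433 ± 0.048 in saline libraries (SD, n = 3 each), with no overlap between hyphae and saline. The ratio of Psmb10 to Psmb7 was 0.357 ± 0.063 in hyphae, 0.627 ± 0.132 in conidia and 0.677 ± 0.091 in saline libraries, also without overlap. The ratio of Psmb8 to Psmb5 was 0.581 ± 0.188 in hyphae, 0.548 ± 0.084 in conidia and 0.578 ± 0.132 in saline libraries, and its ranges overlapped. The ratios were not tested.

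Of 5 chaperones that build the core, none rose and 3 fell in hyphae against saline in the deposited values, where 14.9% of all genes rose and 50% fell. The median log2 difference was −0.47, against −0.37 for all genes. After rescaling 1 rose and 1 fell, with a median of −0.04, so the list was near the background on both scales. The gene that rose after rescaling was Psmg1, by 0.75 (adjusted p = 0.00812). Psmg2, which works in a pair that guides the alpha ring, had 5.79, 4.09 and 4.22 FPKM in hyphae, 8.89, 13.2 and 11.1 FPKM in conidia and 17.0, 14.4 and 13.7 FPKM in saline libraries. It fell on both scales, with log2 differences of −1.50 (adjusted p = 0.000115) and −1.12 after rescaling. Psmg3 fell with a log2 difference of −0.77, and Pomp, which helps the beta subunits into place, with −0.47.

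A list of 10 genes for 19S subunits and proteasome partners with other symbols gave 4 rises and 1 fall in the deposited values. After rescaling it gave 8 rises and 1 fall, where 30% of all genes rose and 29.3% fell. Zfand2a, a stress-induced zinc finger protein that binds the 19S particle, had 30.4, 35.3 and 30.2 FPKM in hyphae, 13.1, 10.9 and 11.3 FPKM in conidia and 8.06, 9.88 and 11 FPKM in saline libraries. All hyphae libraries were far above the others, and the log2 difference against saline was 1.64 (adjusted p = 3.25e-05). Zfand5, a proteasome activator of the same family, rose by 0.93, Txnl1, a thioredoxin bound to the lid, by 0.68, and the ubiquitin receptor Adrm1 by 0.37. Ube3c, a ubiquitin ligase that works at the proteasome, fell with a log2 difference of −1.16. The count of 4 of 10 stands beside 14.9% of all genes that rose, but the list was chosen with earlier results of these data known.

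Ubb, which codes for ubiquitin, averaged 1560 ± 33 FPKM in hyphae and 1060 ± 121 FPKM in saline libraries (SD, n = 3 each), a log2 difference of 0.56 (adjusted p = 0.00255). Uba6, an enzyme that activates ubiquitin, fell with a log2 difference of −1.05 (adjusted p = 0.000108), from low levels at which the added 1 FPKM understates the fold. Of 11 ubiquitin shuttles and cofactors of the unfoldase VCP, 3 rose (Ddi2 by 0.69, Rad23b by 0.57 and Nploc4 by 0.50) and 4 fell, of which Ubqln4 had the lowest log2 difference, −0.89, and after rescaling 7 rose and 1 fell. Their median log2 difference was −0.06 as deposited and 0.35 after rescaling, against −0.37 and 0 for all genes. For comparison, calls in hyphae against saline over the whole set of 13761 covered 14.9% upward and 50% downward without rescaling. With rescaling these shares came to 30% upward and 29.3% downward.

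The transcription factor NRF1 (gene Nfe2l1) is known to raise proteasome subunit genes together when the proteasome is blocked, after release from the endoplasmic reticulum and cleavage by DDI2. Of the 10 genes of this axis, 4 rose and 5 fell in the deposited values, and 4 rose and 2 fell after rescaling. Of all genes 14.9% rose and 50% fell in the deposited values and 30% and 29.3% after rescaling, so the falls were at the background share as deposited. Nfe2l1 had 49.7, 52.3 and 49.4 FPKM in hyphae, 65.3, 63.8 and 64.8 FPKM in conidia and 53.4, 59.4 and 62.1 FPKM in saline libraries. It did not pass the test against saline, with a log2 difference of −0.20 (adjusted p = 0.0577) and of 0.22 after rescaling (adjusted p = 0.0982). The 3 small Maf genes, whose products pair with NRF1 and NRF2 on DNA, rose by 2.85 (Maff), 1.83 (Mafk) and 0.77 (Mafg). Nfe2l2, the gene of NRF2, had 31.2, 30.5 and 36.3 FPKM in hyphae, 107, 95.9 and 101 FPKM in conidia and 99.3, 90.9 and 102 FPKM in saline libraries, a log2 difference of −1.55 (adjusted p = 2.06e-05). Ngly1, the enzyme that strips sugars from NRF1, fell with a log2 difference of −0.86. In conidia against saline no gene named from these lists passed the test.

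**Figure D4:**
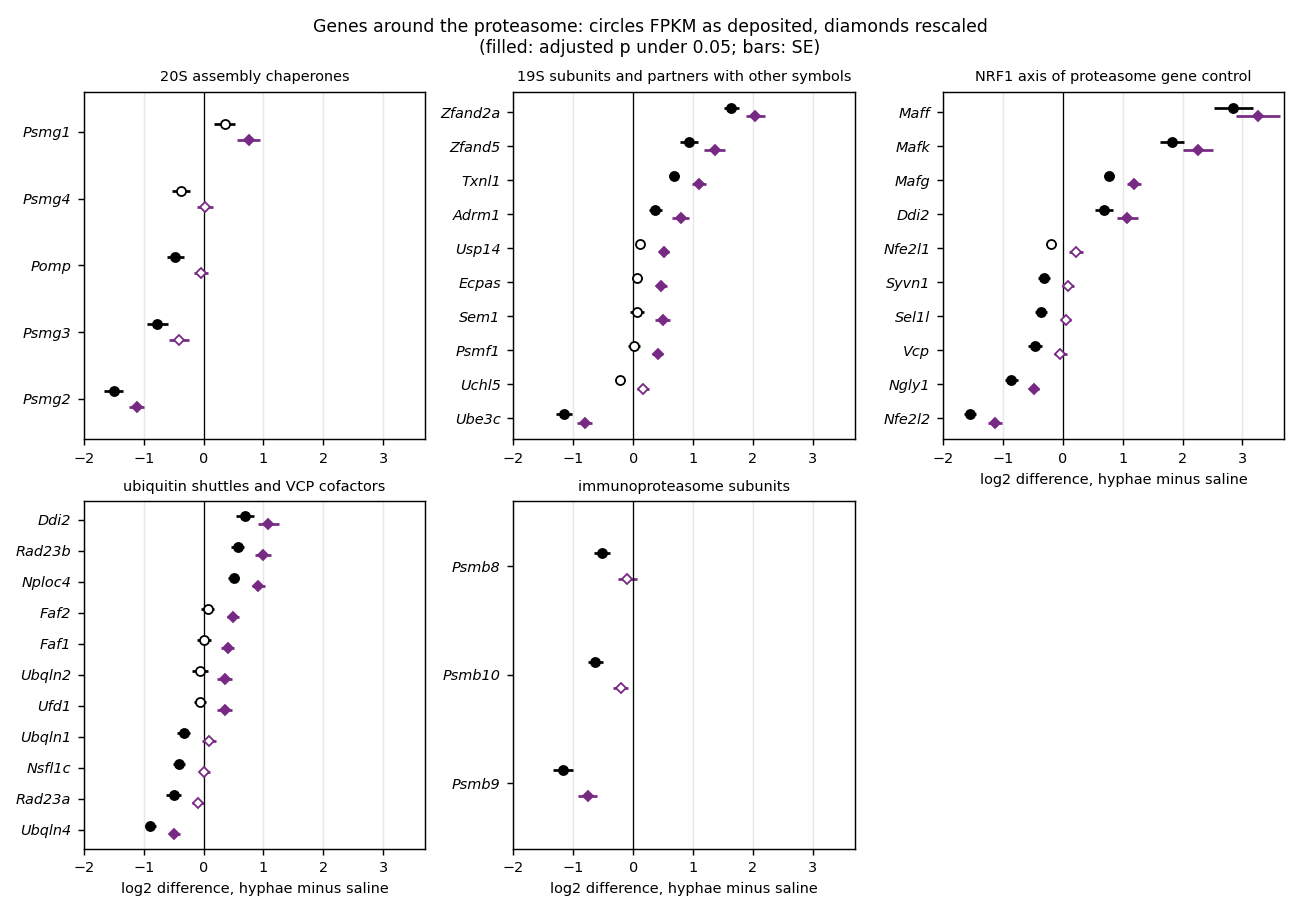
Log2 difference of hyphae minus saline for the genes around the proteasome, 1 panel per list, as deposited (circles) and after rescaling (diamonds), filled where the adjusted p was under 0.05, with SE as bars. Maff, Mafk and Zfand2a lie at the right with 2.85, 1.83 and 1.64, and Nfe2l2, Psmg2, Psmb9 and Ube3c at the left with −1.55, −1.50, −1.17 and −1.16.

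Since subunit genes of the proteasome are known to share control elements, the promoters of the members were searched. RefSeq start sites of build GRCm38.p6 were matched for 35 of the 42 genes, of which 34 were tested, and the window held 250 bases before and 50 bases after the start. The build differs from mm9, so these coordinates belong to the sequences and not to the deposited values. The motifs searched, on both strands, were TGACNNNGC (the core of the antioxidant response element bound by NRF1 and NRF2), CCAAT (the NF-Y box) and GGGCGG (the SP1 box), and none contains another. TGACNNNGC was in 6 of the 34 genes (17.6%), CCAAT in 13 (38.2%) and GGGCGG in 21 (61.8%). Of all genes tested with a promoter, 16.8%, 42.2% and 65.9% held these motifs, so the members were near the background for each. The 6 with TGACNNNGC were Psmb5, Psmb6, Psmc6, Psmd9, Psmd12 and Psme4. Of these, 2 rose, 3 fell and 1 did not pass the test in hyphae against saline in the deposited values. After rescaling Psmb6 rose as well, and Psmb5, Psmd9 and Psme4 did not pass the test.

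The 250 bases before the start are shown for Psmd11, which rose most, and for Psmd12 and Psmc6, which rose and hold TGACNNNGC. They are also shown for Psmb5, which holds it and fell in the deposited values, and for Psmd10. The chaperone Psmd10 fell most among the genes counted with the regulatory particle. Capitals mark matches to any of the 3 motifs in the direction of the gene, and a match is a description and not a binding site. The window of Psmd11 is at chr11:80428365-80428614, that of Psmd12 at chr11:107479278-107479527 and that of Psmc6 at chr14:45329574-45329823 on the plus strand. That of Psmb5 is at chr14:54617996-54618245 and that of Psmd10 at chrX:140956712-140956961 on the minus strand.
Psmd11: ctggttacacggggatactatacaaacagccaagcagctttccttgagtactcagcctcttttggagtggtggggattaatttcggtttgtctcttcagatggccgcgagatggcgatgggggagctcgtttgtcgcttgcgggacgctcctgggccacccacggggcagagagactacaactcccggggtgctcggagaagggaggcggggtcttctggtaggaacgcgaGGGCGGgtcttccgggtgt
Psmd12: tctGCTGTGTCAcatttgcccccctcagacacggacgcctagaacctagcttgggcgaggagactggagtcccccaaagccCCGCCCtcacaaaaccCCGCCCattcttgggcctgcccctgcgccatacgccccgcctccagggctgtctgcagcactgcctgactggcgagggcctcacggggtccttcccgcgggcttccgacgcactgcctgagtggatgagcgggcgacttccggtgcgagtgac
Psmc6: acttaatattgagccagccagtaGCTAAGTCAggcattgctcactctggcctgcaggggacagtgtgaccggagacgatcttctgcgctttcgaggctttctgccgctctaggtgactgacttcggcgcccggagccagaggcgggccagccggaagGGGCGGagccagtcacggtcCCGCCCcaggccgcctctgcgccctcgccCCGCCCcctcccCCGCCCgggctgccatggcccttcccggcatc
Psmb5: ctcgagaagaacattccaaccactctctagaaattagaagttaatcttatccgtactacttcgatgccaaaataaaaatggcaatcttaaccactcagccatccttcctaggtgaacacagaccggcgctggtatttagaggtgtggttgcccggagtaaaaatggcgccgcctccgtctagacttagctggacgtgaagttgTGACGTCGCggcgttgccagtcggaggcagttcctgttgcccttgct
Psmd10: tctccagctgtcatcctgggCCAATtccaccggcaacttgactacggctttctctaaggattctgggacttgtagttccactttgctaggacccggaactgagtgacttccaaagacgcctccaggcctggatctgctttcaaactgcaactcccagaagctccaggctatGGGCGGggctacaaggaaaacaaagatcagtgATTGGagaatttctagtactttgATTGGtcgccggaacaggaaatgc
The window of Psmd11 holds 1 GGGCGG, at position −19, and neither of the other motifs. In Psmd12 and Psmc6 the TGACNNNGC match lies on the opposite strand, so that its complement is in capitals, at positions −247 and −227 from the start. In Psmb5 it reads TGACGTCGC, at position −47. Psmd10 has CCAAT or its complement at 3 places. The motif TGACNNNGC thus stood before genes that rose and, in the deposited values, before a gene that fell. After rescaling Psmb5 did not pass the test.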

How the data were processed

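Whole-lung poly(A) RNA was measured in 9 libraries, 3 per group, sequenced on a BGISEQ instrument per the labels' protocols. The authors deposited FPKM with 2 decimals, per the file headers. Per the submitters' processing notes, HISAT, Bowtie2 and mm9 were used (no role or version listed), and which tool gave the FPKM is not stated in the sources. The files hold no counts. The spacing of the lowest values gave a rough depth of 20300000 to 21300000 fragments per library under an assumed fragment length of 150 bases, so depth itself is not known, and no counting intervals were computed.

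Genes reaching 1 FPKM in 3 or more of 9 libraries were tested on log2(FPKM + 1) in 1 model of all libraries with limma 3.58.1 in R 4.3.3 (trend, robust empirical Bayes, two-sided), with Benjamini-Hochberg adjustment over all 13761 genes and calls at an adjusted p under 0.05. The procedure was tested on simulated data. A rank-based exact test of 3 against 3 cannot go below 0.1. Rescaling divided each library by its median ratio to the geometric mean over libraries. Promoters were searched in Python 3. Alternatives were other pseudocounts and filters, other moderation, a replicate block and leaving out each library. Genes named by rule were the highest and lowest of each class in hyphae against saline, all activators, the genes under the filter and the called genes of each pathway list, up to 4 each by size. Others were named beyond this rule, among them Psmd8, Psmd12, Psmd5, Psmd13, Adrm1, Mafg and Nfe2l1. The members and lists were chosen with earlier results of these data known. No mm9 coordinates of the genes are given, since no mm9 annotation was used here. The coordinates printed are those of promoter windows in GRCm38.p6. Same-numbered libraries did not deviate together (correlations of −0.31 to 0.42), so numbers were not taken as pairs. Part of the list of ubiquitin supply genes is not reported here.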

Additional observations from a re-analysis of the deposited data

How the results depend on the processing

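Rescaling by the median of ratios was the choice that moved most. In hyphae against saline 32 members were above 0 after rescaling, against 16 as deposited. Those that changed sign and were called on either scale were Psmb1 0.40, Psmc2 0.38, Psmc4 0.36, Psmd1 0.35, Psmd7 0.34, Psmb6 0.32, Psmd9 0.14, Psme4 0.13, Psme1 0.09, Psma1 0.08, Psma5 0.08 and Psmd13 0.04. Psma7 and Psmb2 also turned, to 0.27, and did not pass the test after rescaling alone. They passed it under the replicate block with rescaling, which gave the same log2 values. With rescaling and 1 library left out, each passed it in 1 of 9 fits. In hyphae against conidia 25 members were above 0, against 9 as deposited, and those that changed sign and were called on either scale were Psmd4 (0.31), Psma3 (0.30), Psmc2 (0.07) and Psmb2 (0.02). By construction rescaling adds the same amount to nearly every gene of a library.

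Counts of members called ranged from 14 to 22 in hyphae against saline and from 14 to 23 in hyphae against conidia when 1 library was left out, and stayed at 0 in conidia against saline. With rescaling as well, an alternative chosen after seeing the data, the counts were 21 to 27, 8 to 17 and 0 to 14, with 14 from leaving out conidia replicate 2. In hyphae against conidia they were 8, 10 and 11 without hyphae replicate 2, conidia replicate 3 and hyphae replicate 3, against 16. Leaving out 1 library moved the calls among all genes in conidia against saline from 95 to between 0 and 1535 as deposited (1535 without conidia replicate 2) and to between 0 and 1427 with rescaling (1427 without conidia replicate 2, 217 without hyphae replicate 1, 48 without hyphae replicate 3, 0 without any other). That count was 47 with rescaling, 43 without the filter, 57 with a replicate block and 13 with block and rescaling. The cause was not tested. The replicate block gave 21, 19 and 0 members called in hyphae against saline, hyphae against conidia and conidia against saline, and as the numbers do not pair the libraries it is only a check.

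The hyphae minus saline difference in the core excess over the regulatory particle was −0.179 without Psmd5, Psmd9 and Psmd10. With them, the group means of the excess itself were 0.864 in hyphae and 0.920 in saline libraries. The hyphae minus conidia difference was −0.165 without these chaperones, −0.034 with Psmc3ip counted in and −0.011 without the filter, against −0.071. Other pseudocounts, the filter at 5 FPKM and ordinary moderation left every count of members within 1.5 times. At low FPKM the 2 decimals and unknown depth limit Psma8, Psmb11 and Psmc3ip.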
